A study of Mus musculus with 4 samples.

Results

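The interferon-stimulated genes examined here are a list of 46 mouse genes that cells switch on after interferon reaches its receptor. The genes were listed by name, and 45 of them were analysed among the 32285 genes of the count tables, while Mx1 was not analysed here. Their unique molecular identifiers (UMIs, each standing for 1 captured RNA molecule) were counted in single cells of 4 libraries, 1 for each group, and levels are given as UMIs per 1000000 UMIs of a cell class in a library (CPM), with no correction for gene length. The groups were control bone marrow (CBM), bone marrow of tumor-bearing mice (TBM), control spleen (CS) and spleen of tumor-bearing mice (TS), all from C57BL/6J mice aged 8 to 16 weeks with no genetic change named. The tumor was PyMT-B6, a mouse mammary carcinoma line, and the number of mice behind each library is not given in the sources used here. Cells were depleted of mature lineages and sorted into CD45+ c-Kit+ gates with and without Sca-1 and into CD45- stromal and endothelial gates, which were then combined at equal ratios. The share of a cell type in a library was therefore set by the sort, and values are given within cell classes. Because each group was 1 library, no test between groups was possible. All intervals are exact 95% intervals that cover counting error only, and the spread between mice is unknown. Intervals of levels and ratios take each UMI as an independent draw, so uneven spread of UMIs between cells is not covered either.

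Interferons are secreted warning signals. Type I interferons bind the receptor IFNAR, activate the kinases JAK1 and TYK2, and send a complex that holds STAT2 and IRF9 to a DNA element called the interferon-stimulated response element (ISRE), whereas interferon-gamma acts through gamma-activated sites (GAS). The genes switched on encode sensors of foreign nucleic acid, enzymes that block viral replication, GTPases that attack intracellular pathogens, and membrane proteins that hinder viral entry. In hematopoietic stem and progenitor cells (HSPCs), acute type I interferon is known to push dormant stem cells into cycle, and many of these genes are also held at a basal level without infection.

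The promoters show which members carry these elements in the letters searched. A RefSeq window of 300 bases, from 250 before to 50 after the transcription start on GRCm38.p6, was at hand for 35 of the 45 members. The ISRE core was searched as GAAANNGAAA and the GAS core as TTCNNNGAA, on both strands. The ISRE core stood in the windows of 20 of the 35 members (57.1%), against 3.99% of all 27025 genes with a window. The GAS core stood in 10 of the 35 members (28.6%) against 9.55% of all genes. Both cores were found in 6 members (Oas1a, Eif2ak2, Gbp7, Igtp, Bst2 and Ifitm3), and they shared bases in Bst2 and Ifitm3. The stretches below were chosen to show how the cores lie in members whose values are described further on. Isg15, Ifit3 and Ifitm2 carry an ISRE core, Igtp carries both cores side by side, and Irf1 carries a GAS core. Ifitm1, the most abundant member in HSPCs, has neither core in its window. That window (from chr7:140967826) lies inside the annotated gene, which begins at 140967221, so the bases before the gene were not searched. The stretches are printed 5′ to 3′ on the gene's strand, with motif letters in capitals, and none of the matches is evidence of binding.
Isg15 (chr4:156200855-156200916, minus strand, from 98 to 37 bases before the start; 3 overlapping ISRE cores): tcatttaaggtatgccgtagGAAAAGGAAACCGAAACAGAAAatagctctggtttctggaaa
Ifit3 (chr19:34583353-34583436, plus strand, from 176 to 93 bases before the start; 2 ISRE cores read on the other strand): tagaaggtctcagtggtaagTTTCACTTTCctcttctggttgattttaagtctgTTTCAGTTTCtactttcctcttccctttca
Ifitm2 (chr7:140955978-140956027, minus strand, from 66 to 17 bases before the start; 1 ISRE core): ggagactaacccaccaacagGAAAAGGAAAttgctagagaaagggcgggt
Igtp (chr11:58199491-58199551, plus strand, from 65 to 5 bases before the start; a GAS core followed by an ISRE core): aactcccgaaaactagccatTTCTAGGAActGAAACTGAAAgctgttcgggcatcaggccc
Irf1 (chr11:53769904-53769952, plus strand, from 110 to 62 bases before the start; 1 GAS core): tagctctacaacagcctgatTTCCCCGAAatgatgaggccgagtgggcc
Ifitm1 (chr7:140967996-140968075, plus strand, the last 80 bases before the start; no match in the window): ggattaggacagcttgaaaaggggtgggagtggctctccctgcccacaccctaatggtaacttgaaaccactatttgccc

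Barcodes with at least 1000 detected genes and at most 10% mitochondrial UMIs were kept as cells, which left 3497, 4340, 3236 and 5188 cells in CBM, TBM, CS and TS. The median depth was 13738 to 14386 UMIs per cell in the marrow libraries and 26322.5 to 26808 in the spleen libraries, and 2 to 9 cell barcodes were shared between any 2 libraries. Cells were grouped into classes by marker genes after clustering without the interferon-stimulated genes, so the class names are rebuilt here and can differ from those of the study. Clusters that met the rule for no class stayed unnamed, with 373, 521, 127 and 613 cells in CBM, TBM, CS and TS, and entered no class comparison. The largest of them, cluster 10, led by Scin and Gm15915, held 12, 162, 8 and 491 cells, mostly from tumor-bearing mice. HSPC was its best class, but too small a share of the HSPC markers was raised for that name. HSPC-like cells numbered 824, 920, 152 and 691 in CBM, TBM, CS and TS. All 9 HSPC markers were detected in each library, among them Hlf, a transcription factor of stem cells, at 376, 248, 189 and 106 CPM in the same order, and Cd34 at 371, 395, 336 and 328. RNA floating free in the suspension also reaches droplets, and barcodes with at most 100 UMIs held 2944, 3037, 3103 and 2245 CPM of the summed members.

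In HSPC-like cells most interferon-stimulated genes were lower in the libraries of tumor-bearing mice, in spleen and in marrow, while a few abundant membrane protein genes were higher. In TS over CS, 36 of the 43 members with at least 20 UMIs were lower and 7 were higher, where 44.8% of all 11647 genes tested were higher. The intervals of 21 members lay below 0 and those of 3 above it, against 16.6% and 14.3% of all genes. The median member log2 ratio was -0.33 (-0.695 to 0.01), beside -0.05 over all genes. In TBM over CBM, 38 of 44 members were lower, where 46.8% of all genes were higher. The intervals of 22 lay below 0 (all genes 19.5%) and those of 5 above 0 (all genes 18.2%), and the median was -0.37 (-0.65 to -0.01), beside -0.02. In CS over CBM the direction was the other one: 31 of 43 members were higher in control spleen, where 51.5% of all genes were higher. The intervals of 17 lay above 0 (all genes 12.4%) and those of 3 below 0 (all genes 8.35%), and the median was 0.19 (-0.18 to 0.51), beside 0.01. These medians depended on how the class was drawn. With each cell assigned to a class on its own by its markers, which gave 780, 943, 377 and 730 HSPC-like cells, the median was -0.087 in TS over CS, -0.27 in TBM over CBM and -0.0043 in CS over CBM, so the direction between the control tissues was lost and the spleen difference was smaller. The comparisons share libraries, CS in the first and the last and CBM in the second and the last, so the values stand side by side and are not independent of each other. The median intervals run from the median lower bound to the median upper bound of the members.

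Few members differed by 2-fold or more. In TS over CS 2 of 43 were at least 2-fold lower, beside 3.6% of all genes, and 1 was at least 2-fold higher, beside 1.92%. Both shares are near the background. In TBM over CBM 5 of 44 were at least 2-fold lower (2.75% of all genes) and 1 was at least 2-fold higher (2.22%). In CS over CBM 1 of 43 was at least 2-fold higher (2.2%) and 0 were at least 2-fold lower (2.93%). Members with an ISRE core in the window had medians of -0.32, -0.30 and 0.21 in the 3 comparisons, and the 15 members with a window but no such core had -0.31, -0.38 and 0.12, so the 2 sets lay close together.

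**Figure D1:**
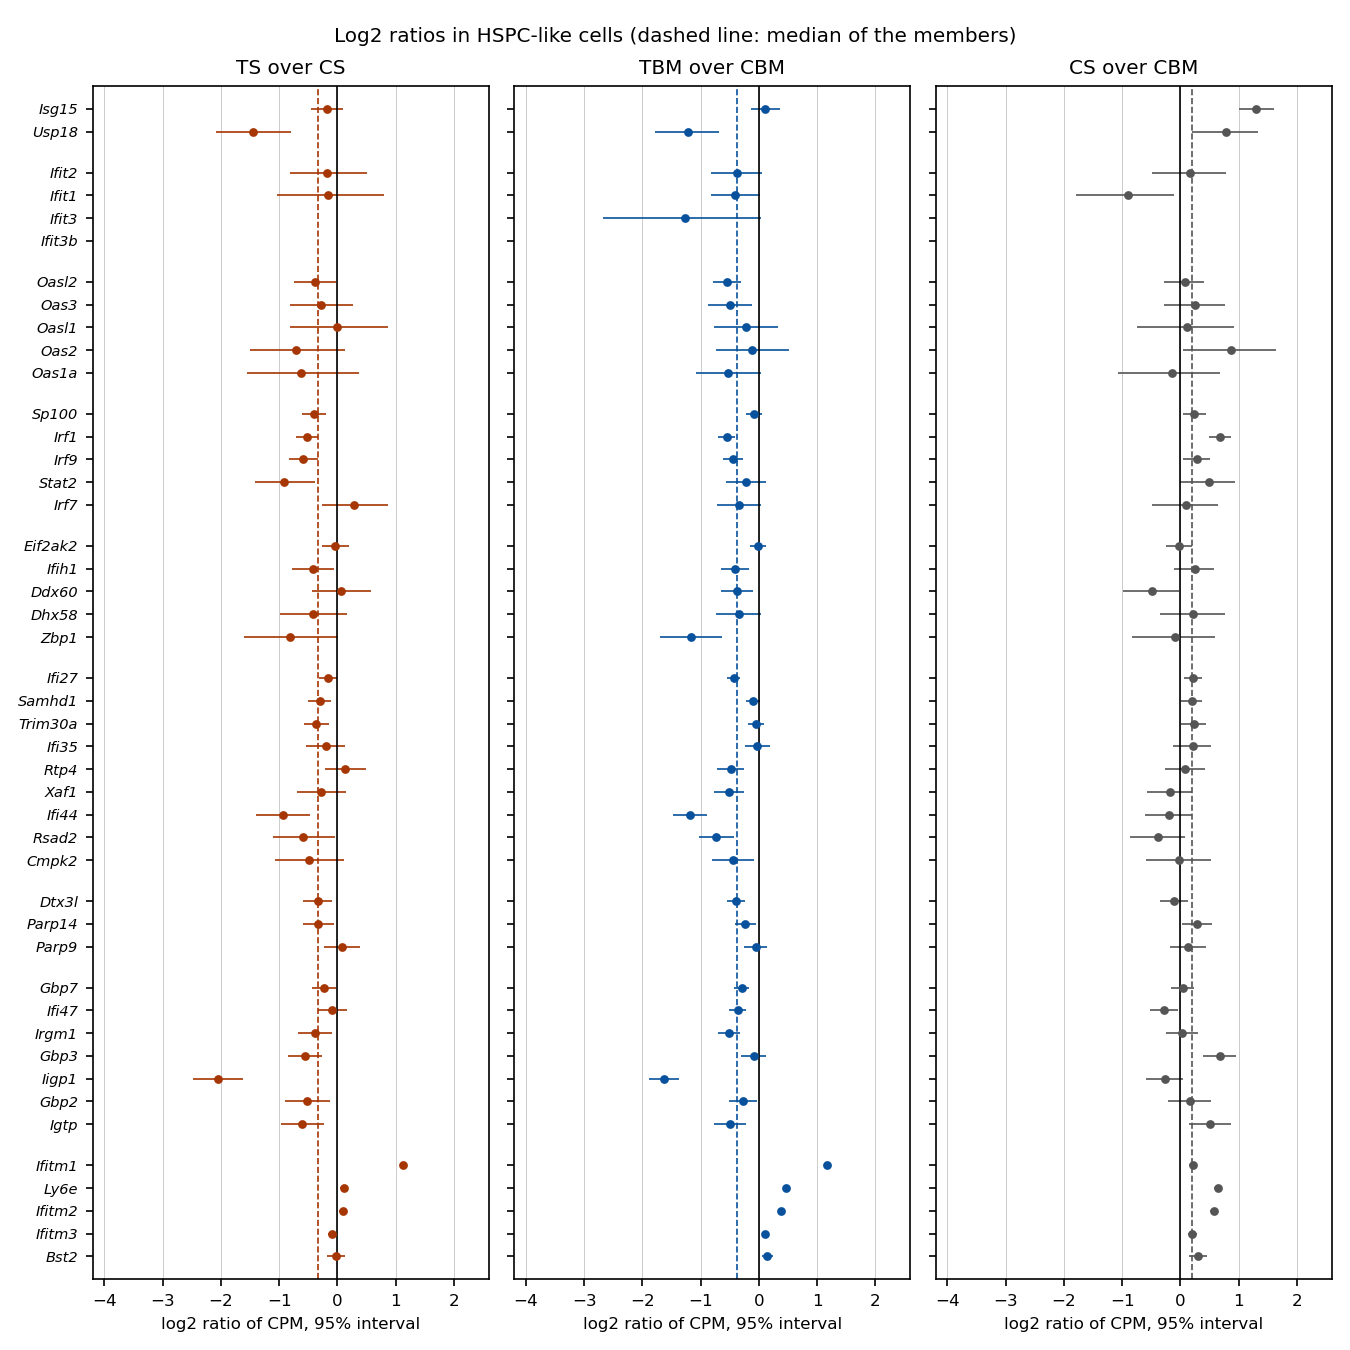
Log2 ratios of the interferon-stimulated genes in HSPC-like cells, with 1 row per member, for TS over CS, TBM over CBM and CS over CBM; points are ratios and lines are exact 95% counting intervals. Most points lie left of 0 in the tumor comparisons, with Iigp1 farthest left (-2.04 and -1.63) and Ifitm1 farthest right (1.13 and 1.16).

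The summed level and the median had opposite signs in the tumor comparisons. Ifitm1, Ly6e and Ifitm2 together held 47.8% to 65.8% of all member UMIs in HSPC-like cells. The sum stood at 3395 CPM in CBM and 4362 in TBM, and 4245 in CS and 4974 in TS. It was thus higher in both tumor libraries, by 0.23 (0.20 to 0.255) on the log2 scale in spleen and 0.36 (0.34 to 0.38) in marrow, and higher in CS than in CBM by 0.32 (0.295 to 0.35). Without Ifitm1, Ly6e and Ifitm2 the same ratios were -0.25, -0.18 and 0.19. A stricter set of 13 antiviral members was listed by name (Isg15, Usp18, Ifit1, Ifit2, Ifit3, Ifit3b, Oasl1, Oasl2, Irf7, Rsad2, Cmpk2, Ifi44 and Rtp4). It leaves out the abundant membrane protein genes, but also genes of low level such as Oas2 and Oas1a. The strict set summed to 158, 110.1, 181 and 149 CPM in CBM, TBM, CS and TS. Its log2 ratios were -0.28 (-0.42 to -0.15), -0.52 (-0.61 to -0.42) and 0.20 (0.07 to 0.33) in the 3 comparisons, each with its interval apart from 0, but with each cell assigned on its own that of TS over CS was -0.079.

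Markers of other cell types moved with these values. The 8 macrophage markers summed to 24.1 CPM in CBM and 51.4 in CS HSPC-like cells, but to 3.36 in TBM and 6.67 in TS. All 8 were detected except Cd5l in TBM, and Vcam1 alone stood at 6.895, 0.8735, 15.9 and 0.926. The 9 conventional dendritic cell markers summed to 97.7, 46.4, 125 and 56.8, mostly from class II antigen presentation genes such as H2-Ab1 (64.9, 35.3, 76.8 and 48.0). The defining dendritic markers Xcr1, Clec9a and Cd209a were at 0 to 4 UMIs in every library, with Xcr1 at 0 in CBM and Cd209a at 0 in TBM, CS and TS, and Batf3 was at 0 in TS. The 9 mast or basophil markers, higher in both tumor libraries as Ifitm1 was, summed to 165, 298, 247 and 365, with Prss34 and Fcer1a at 0 in CS. Neutrophil markers, 9 in all, summed to 22.3, 118, 3.54 and 16.8 in the order CBM, TBM, CS and TS. The part of these cells or their free RNA in the member values was not tested.

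**Figure D2:**
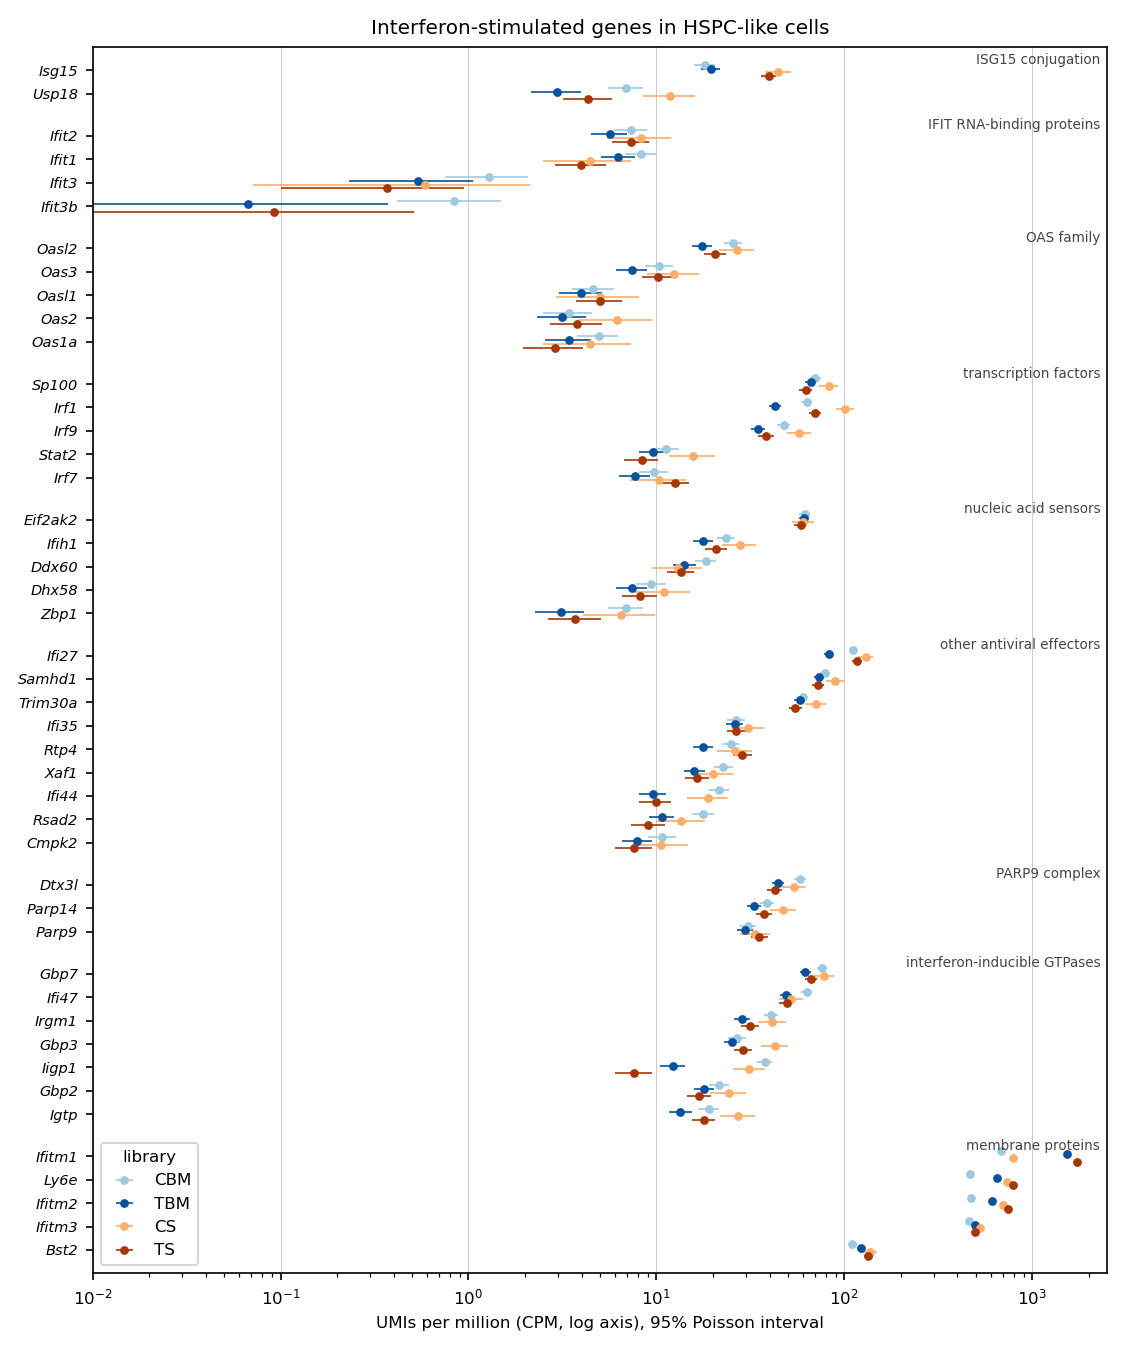
Level of each interferon-stimulated gene in HSPC-like cells of the 4 libraries, in CPM on a log axis, with exact 95% Poisson intervals. Ifitm1 is the highest point in each library (683.5 in CBM and 1531 in TBM, and 791 in CS and 1731.5 in TS), and the strict antiviral members lie far below it.

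Among the genes of ISG15 conjugation, Isg15 encodes a ubiquitin-like protein that is joined to other proteins, and Usp18 encodes the protease that removes it and also quiets the type I interferon receptor. Isg15 (ENSMUSG00000035692, chr4:156199424-156200818 on the minus strand, GRCm38) stood at 18.1 (15.9 to 20.6) CPM in CBM and 19.6 (17.4 to 21.9) in TBM, and 44.6 (37.8 to 52.3) in CS and 39.55 (35.9 to 43.5) in TS. Both spleen libraries were above both marrow libraries and the intervals of the 2 tissues did not overlap, with a log2 ratio of 1.30 (1.00 to 1.60) for CS over CBM, the highest of all members. The tumor contrasts of Isg15 were -0.17 (-0.44 to 0.10) in spleen and 0.11 (-0.14 to 0.36) in marrow, both with intervals that include 0, while within cluster 0, one of the clusters that make up HSPC-like cells, that of spleen was -1.42. Free RNA held 15.04 in CBM and 14.2 in TBM, and 44.6 in CS and 22.2 in TS CPM of Isg15, and its intervals overlapped those of HSPC-like cells in all libraries except TS. The part of free RNA in the difference between the tissues was not tested. Usp18 (ENSMUSG00000030107, chr6:121245906-121270917) stood at 6.895 CPM in CBM and 2.96 in TBM, and 11.8 in CS and 4.35 in TS, lower in both tumor libraries by log2 ratios of -1.44 (-2.08 to -0.79) and -1.22 (-1.78 to -0.69), and higher in CS than in CBM (0.78 (0.20 to 1.33)). Within cluster 0 its spleen ratio was -0.32, with 17.3 (10.7 to 26.4) in CS and 13.8 (5.06 to 30.01) in TS, which overlapped. Usp18 overlaps Gm44148 on the opposite strand.

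The IFIT proteins bind RNA ends that mark viral transcripts, and their genes were expressed at a low level. Ifit1 stood at 8.26 CPM in CBM and 6.25 in TBM, and 4.43 in CS and 3.98 in TS, and was lower in CS than in CBM (-0.90 (-1.78 to -0.11)), which set it apart from Isg15. Ifit2 stood at 7.35 in CBM and 5.64 in TBM, and 8.27 in CS and 7.32 in TS, with ratios of -0.18 (-0.81 to 0.50) in spleen and -0.38 (-0.82 to 0.06) in marrow. Ifit3 and Ifit3b are near-identical copies, so their counts are less certain. Ifit3 had 17, 8, 2 and 4 UMIs and Ifit3b 11, 1, 0 and 1 in CBM, TBM, CS and TS, so a ratio was formed only for Ifit3 in marrow (-1.26 (-2.68 to 0.03)). The summed IFIT genes had log2 ratios of -0.18 (-0.68 to 0.35), -0.50 (-0.79 to -0.22) and -0.42 (-0.91 to 0.05) in the 3 comparisons, apart from 0 only in TBM over CBM.

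The OAS proteins sense double-stranded RNA and make short adenylate chains that activate RNase L, but not every OAS-like protein makes these chains. All 5 measured genes were lower in both tumor comparisons, and 4 of the 5 were higher in CS than in CBM. The most abundant, Oasl2, stood at 25.5 CPM in CBM and 17.5 in TBM, and 26.9 in CS and 20.6 in TS, with ratios of -0.39 (-0.74 to -0.02) in spleen and -0.54 (-0.78 to -0.30) in marrow, both apart from 0. Oas3 stood at 10.4 in CBM and 7.39 in TBM, and 12.4 in CS and 10.2 in TS and was lower in TBM than in CBM (-0.49 (-0.87 to -0.12)), while its spleen ratio of -0.28 (-0.81 to 0.27) was not apart from 0. Oas2 stood at 3.41 in CBM and 3.16 in TBM, and 6.20 in CS and 3.80 in TS, with 0.86 (0.04 to 1.64) for CS over CBM as reported, but -0.59 within cluster 0 of these cells and 0.041 with each cell assigned on its own. For Oas1a (4.925 in CBM and 3.43 in TBM, and 4.43 in CS and 2.87 in TS) and Oasl1 (4.62 in CBM and 3.96 in TBM, and 5.02 in CS and 5.002 in TS), all intervals included 0. As a sum the family had ratios of -0.37 (-0.62 to -0.12), -0.46 (-0.63 to -0.29) and 0.17 (-0.07 to 0.41).

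Of the 5 transcription factor genes, 4 were lower in TS than in CS, 5 were lower in TBM than in CBM and 5 were higher in CS than in CBM. Irf1 (ENSMUSG00000018899, chr11:53770014-53778374), an early target of interferon-gamma whose promoter stretch with a GAS core is printed above, stood at 63.0 CPM in CBM and 42.9 in TBM, and 101 in CS and 70.1 in TS. It was lower in both tumor libraries, by -0.52 (-0.71 to -0.33) and -0.55 (-0.71 to -0.40), and higher in CS than in CBM (0.68 (0.49 to 0.86)). Its spleen ratio was -0.32 within cluster 0 and -0.31 within cluster 5. Irf9, the DNA-binding part of the type I interferon complex, stood at 47.5 in CBM and 34.8 in TBM, and 57.6 in CS and 38.3 in TS and had the same directions, -0.59 (-0.84 to -0.33), -0.45 (-0.62 to -0.28) and 0.28 (0.04 to 0.51). Its partner Stat2 stood at 11.2 in CBM and 9.61 in TBM, and 15.65 in CS and 8.34 in TS, lower in TS (-0.91 (-1.41 to -0.39)) and with an interval around 0 in marrow (-0.22 (-0.56 to 0.12)). The spleen ratio of Stat2 turned to 0.28 within cluster 0 and was -0.18 with each cell assigned on its own. Sp100, a protein of nuclear bodies, was lower in TS than in CS by -0.41 (-0.61 to -0.20), with -0.09 (-0.22 to 0.05) in marrow, from 70.2 in CBM and 66.1 in TBM, and 82.7 in CS and 62.3 in TS. Irf7, which amplifies interferon production, stood at 9.70 in CBM and 7.66 in TBM, and 10.3 in CS and 12.6 in TS and its ratios of 0.29 (-0.26 to 0.87) and -0.34 (-0.72 to 0.035) had opposite signs and intervals that include 0. The summed ratios were -0.48 (-0.59 to -0.36), -0.32 (-0.40 to -0.24) and 0.41 (0.295 to 0.515). Irf9 shares bases with Rnf31 on the same strand, and Irf7 and Sp100 overlap genes on the opposite strand.

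The sensors of nucleic acid differed among themselves. Ifih1, the RNA sensor MDA5, stood at 23.5 CPM in CBM and 17.7 in TBM, and 27.8 in CS and 20.75 in TS and was lower in both tumor libraries (-0.42 (-0.77 to -0.06) and -0.405 (-0.65 to -0.16)). Zbp1, which binds Z-form nucleic acid and can start cell death, was lower by -1.16 (-1.70 to -0.63) in marrow, from 6.895 in CBM and 3.09 in TBM, and 6.496 in CS and 3.705 in TS, and its spleen ratio of -0.81 (-1.60 to 0.01) just included 0. Eif2ak2, the RNA-activated kinase PKR, lay within a narrow range in all 4 libraries (61.4 in CBM and 61.0 in TBM, and 60.5 in CS and 58.8 in TS), with ratios of -0.04 (-0.27 to 0.19), -0.01 (-0.15 to 0.13) and -0.02 (-0.25 to 0.20). Its promoter window holds both cores. Ddx60, a helicase that aids RNA sensing, stood at 18.3 in CBM and 14.1 in TBM, and 12.99 in CS and 13.5 in TS, lower in TBM (-0.38 (-0.65 to -0.11)) and in CS (-0.50 (-0.995 to -0.03)) than in CBM. For Dhx58, the sensor LGP2 (9.40 in CBM and 7.39 in TBM, and 10.9 in CS and 8.15 in TS), no interval was apart from 0.

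Of the other antiviral effectors, 8 of 9 were lower in TS than in CS and 9 of 9 in TBM than in CBM. The lowest ratios were those of Ifi44 (ENSMUSG00000028037, chr3:151730922-151749960), a cytoplasmic antiviral protein, which stood at 21.6 (19.2 to 24.25) CPM in CBM and 9.54 (8.04 to 11.2) in TBM, and 18.9 (14.6 to 24.1) in CS and 9.91 (8.12 to 12.0) in TS. Neither tumor library overlapped the control of its tissue, and the ratios were -0.93 (-1.39 to -0.46) and -1.18 (-1.48 to -0.88). The spleen ratio of Ifi44 was 0.096 within cluster 0 and -0.15 with each cell assigned on its own. Ifi44 stood at 7.30 (3.64 to 13.1) in CS and 6.05 (4.32 to 8.24) in TS in cluster 5. In cluster 16 these were 28.7 (17.3 to 44.8) and 14.4 (10.8 to 18.8), and the intervals overlapped in both clusters. Rsad2 (viperin), which makes a chain-terminating nucleotide, stood at 17.7 in CBM and 10.7 in TBM, and 13.6 in CS and 9.08 in TS and was lower by -0.58 (-1.10 to -0.04) and -0.73 (-1.03 to -0.43), with -0.10 in spleen within cluster 0. Its neighbor Cmpk2, a mitochondrial nucleotide kinase, stood at 10.8 in CBM and 7.93 in TBM, and 10.6 in CS and 7.60 in TS with -0.485 (-1.07 to 0.12) and -0.44 (-0.805 to -0.08). Ifi27, a hydrophobic interferon-induced protein, stood at 112 in CBM and 82.6 in TBM, and 130.2 in CS and 116 in TS with smaller differences of -0.165 (-0.32 to -0.005) and -0.43 (-0.545 to -0.32). Samhd1, which depletes nucleotides, and Trim30a, a ubiquitin ligase of the TRIM family, were lower in TS (-0.31 (-0.50 to -0.11) and -0.36 (-0.58 to -0.14)) but not apart from 0 in TBM (-0.10 (-0.22 to 0.02) and -0.05 (-0.20 to 0.09)). Samhd1 stood at 78.6 in CBM and 73.4 in TBM, and 89.8 in CS and 72.6 in TS, and Trim30a at 60.2 in CBM and 57.9 in TBM, and 70.6 in CS and 54.9 in TS. Xaf1 and Rtp4, a gene that favors cell death and a receptor transporter protein, were apart from 0 only in marrow, at -0.51 (-0.77 to -0.26) and -0.49 (-0.73 to -0.25), and Rtp4 was the only effector with a higher value in TS (0.13 (-0.22 to 0.48)). Their levels were 22.7 in CBM and 15.9 in TBM, and 20.1 in CS and 16.5 in TS for Xaf1 and 24.85 in CBM and 17.7 in TBM, and 26.3 in CS and 28.7 in TS for Rtp4. Ifi35 lay close to even in all libraries (26.6 in CBM and 26.1 in TBM, and 30.7 in CS and 26.7 in TS). Rtp4 overlaps Masp1 on the opposite strand and Gm45338 on its own, and Ifi35 overlaps Gm11626.

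Parp9, Dtx3l and Parp14 encode ADP-ribosylating enzymes and a ubiquitin ligase that strengthen the interferon response, and Parp9 and Dtx3l lie head to head with overlapping ends. Dtx3l stood at 58.3 CPM in CBM and 44.4 in TBM, and 54.0 in CS and 42.7 in TS and was lower in both tumor libraries (-0.34 (-0.59 to -0.08) and -0.39 (-0.54 to -0.24)), as was Parp14 (-0.33 (-0.60 to -0.06) and -0.23 (-0.41 to -0.05)), from 38.8 in CBM and 33.1 in TBM, and 47.2 in CS and 37.6 in TS. Parp9 did not follow them, with ratios of 0.07 (-0.23 to 0.39) and -0.05 (-0.25 to 0.15) and levels of 30.8 in CBM and 29.7 in TBM, and 33.7 in CS and 35.4 in TS.

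The interferon-inducible GTPases attack vacuoles that hold pathogens, and all 7 were lower in both tumor comparisons, by -0.44 (-0.55 to -0.33) and -0.45 (-0.52 to -0.38) as a sum. Iigp1, an immunity-related GTPase also called Irga6, had the lowest ratio in both tumor comparisons among the members with at least 20 UMIs. It was counted with 498, 182, 106 and 82 UMIs in CBM, TBM, CS and TS, or 37.7 (34.5 to 41.2), 12.2 (10.5 to 14.1), 31.3 (25.6 to 37.9) and 7.60 (6.04 to 9.43) CPM. Both control libraries were above both tumor libraries with no overlap, and the ratios were -2.04 (-2.48 to -1.61) in spleen and -1.63 (-1.88 to -1.38) in marrow, against -0.27 (-0.59 to 0.04) between the control tissues. The share of HSPC-like cells with an Iigp1 UMI, after each cell was thinned to 2000 UMIs, was 6.32% (4.75 to 8.20) in CBM and 3.15% (2.12 to 4.50) in TBM, and 4.61% (1.87 to 9.26) in CS and 1.74% (0.9005 to 3.01) in TS. In granulocyte-monocyte progenitor-like (GMP-like) cells of CBM it was 0 of 674 cells, with an exact upper bound of 0.546%, where a floor of 3 cells would be 0.445%. In unthinned cells the HSPC-like share was 25.6%, 13.6%, 25.7% and 8.54%, and that of GMP-like cells of CBM was 1.32%. The other immunity-related GTPases were lower by less: Igtp, with a GAS and an ISRE core, stood at 19.0 in CBM and 13.4 in TBM, and 27.2 in CS and 17.9 in TS with -0.60 (-0.97 to -0.23) and -0.50 (-0.78 to -0.23). Irgm1 stood at 40.7 in CBM and 28.5 in TBM, and 41.3 in CS and 31.6 in TS with -0.39 (-0.68 to -0.09) and -0.51 (-0.70 to -0.33). Ifi47 was lower in TBM (-0.365 (-0.51 to -0.22)) and in CS (-0.28 (-0.52 to -0.04)) than in CBM, from 63.3 in CBM and 49.1 in TBM, and 52.3 in CS and 49.3 in TS.

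The guanylate-binding proteins among them resemble each other in sequence, so their counts are less certain. Gbp2 stood at 21.6 CPM in CBM and 17.9 in TBM, and 24.2 in CS and 16.9 in TS and was lower in both tumor libraries (-0.52 (-0.91 to -0.13) and -0.27 (-0.52 to -0.03)). Gbp7 stood at 76.4 in CBM and 62.2 in TBM, and 78.25 in CS and 66.7 in TS, also lower in both (-0.23 (-0.44 to -0.02) and -0.30 (-0.43 to -0.17)). Gbp3 stood out in control spleen, at 26.9 in CBM and 25.3 in TBM, and 42.8 in CS and 29.0 in TS, above CBM by 0.67 (0.38 to 0.95), and its tumor ratios were -0.56 (-0.85 to -0.27) in spleen and -0.09 (-0.30 to 0.12) in marrow. When each cell was assigned to a class on its own, the CS over CBM ratio of Gbp3 was -0.36, so its direction depends on how the class was drawn. Igtp and Ifi47 overlap Irgm2 and Olfr56 on the same strand.

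Of the 5 membrane protein genes, 3 were higher in TS than in CS and 5 were higher in TBM than in CBM. Ifitm1 (ENSMUSG00000025491, chr7:140967221-140969825), an interferon-induced transmembrane protein that is abundant in stem and germ cells, stood at 683.5 (669 to 698) CPM in CBM and 1531 (1511 to 1551) in TBM, and 791 (761 to 821) in CS and 1731.5 (1707 to 1756.5) in TS. Both tumor libraries were more than 2-fold above their controls, with ratios of 1.13 (1.07 to 1.19) and 1.16 (1.13 to 1.199). After thinning, 69.1% (65.9 to 72.3) of CBM and 70.4% (62.5 to 77.5) of CS HSPC-like cells held an Ifitm1 UMI, and 90.7% (88.6 to 92.5) of TBM and 91.3% (89.0 to 93.3) of TS. Free RNA held 404 in CBM and 700.1 in TBM, and 489 in CS and 324 in TS CPM of Ifitm1, below the HSPC-like level in every library. Its relative Ifitm2, with an ISRE core, stood at 471 in CBM and 613 in TBM, and 699 in CS and 746 in TS, with 0.09 (0.03 to 0.16) and 0.38 (0.33 to 0.43), and was more abundant in CS than in CBM (0.57 (0.50 to 0.64)). Its spleen ratio turned to -0.026 within cluster 0 and -0.10 with each cell assigned on its own. Ifitm3 stood at 460.3 in CBM and 493 in TBM, and 529 in CS and 497 in TS, and its tumor ratios of -0.09 (-0.17 to -0.01) and 0.10 (0.05 to 0.15) had opposite signs. Within cluster 0 it was the higher in TS, at 629 (585 to 675) in CS and 653 (579 to 733) in TS, as in cluster 5 (417 (385 to 451) and 449 (433 to 466)), and in cluster 16 the lower (597 (540.0 to 659) and 562 (538 to 587)), with intervals that overlapped in each.

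Ly6e, a GPI-anchored protein that limits the entry of coronaviruses, stood at 469 CPM in CBM and 649 in TBM, and 737 in CS and 794 in TS, with 0.11 (0.04 to 0.17), 0.47 (0.42 to 0.52) and 0.65 (0.58 to 0.72). Free RNA held 725.5 in CBM and 622 in TBM, and 634 in CS and 445 in TS CPM of Ly6e and 643 in CBM and 697 in TBM, and 827 in CS and 557 in TS of Ifitm2. The free RNA level was above that of HSPC-like cells in CBM for Ly6e, and in CBM, TBM and CS for Ifitm2. With 10% of the UMIs subtracted by the free RNA profile, the ratio of the summed members was 0.27 in spleen and 0.39 in marrow. Bst2 (tetherin), which holds budding virions at the cell surface, stood at 110.4 in CBM and 122 in TBM, and 137 in CS and 134.5 in TS, higher in TBM than in CBM (0.15 (0.05 to 0.25)) and with -0.02 (-0.18 to 0.13) in spleen.

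HSPC-like cells fell into 3 clusters whose shares differed between libraries, so the ratios were also formed inside each. Cluster 0 (led by Hlf, Vldlr and Dntt) held 609, 635, 67 and 46 cells in CBM, TBM, CS and TS, and cluster 5 held 215, 279, 46 and 303. Cluster 16, led by the chemokine gene Cxcl2, the adhesion gene Selp and the early response gene Egr1, held 0, 6, 39 and 342 cells and was therefore nearly all from spleen. The strict antiviral sum was lower in cluster 5 than in cluster 0 in every library, at 96.5 against 198 CPM in CBM, 63.5 against 152 in TBM, 110.2 against 237 in CS and 95.75 against 191 in TS. In cluster 16 it stood at 241 in CS and 238 in TS. The member median of TS over CS was -0.019 in cluster 0, -0.26 in cluster 5 and -0.125 in cluster 16, all nearer to 0 than the -0.33 of the whole class, and -0.54 without cluster 16. The spleen difference therefore depends on which HSPC-like cells are joined. The marrow medians were less affected, at -0.28 in cluster 0 and -0.33 in cluster 5.

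Named genes differed in how far they kept their direction inside the clusters. Ifitm1 was higher in the tumor library in each, at 903 (851 to 958) CPM in CS and 1949 (1819.8 to 2084.5) in TS in cluster 0, 567 (530.0 to 607) and 1623 (1592 to 1654) in cluster 5, and 1092 (1014 to 1175) and 1898 (1854 to 1943) in cluster 16. Iigp1 was lower in TS in cluster 0 (51.0 (39.1 to 65.3) in CS and 9.19 (2.50 to 23.5) in TS) and in cluster 5 (19.2 (12.9 to 27.6) and 2.72 (1.61 to 4.30)), while in cluster 16 the intervals overlapped (22.6 (12.7 to 37.3) and 16.0 (12.2 to 20.6)). Isg15 in cluster 0 stood at 21.8 (18.6 to 25.3) in CBM and 25.3 (21.9 to 29.1) in TBM, and 61.6 (48.5 to 77.3) in CS and 23.0 (11.02 to 42.3) in TS, so there TS was below CS with intervals apart, and its interval overlapped those of both marrow libraries. In cluster 5 it stood at 22.6 (15.6 to 31.5) in CS and 26.3 (22.6 to 30.5) in TS, and in cluster 16 at 63.4 (45.7 to 85.6) and 64.8 (56.9 to 73.5). Ifi44 in cluster 0 was close to even in spleen (27.9 (19.35 to 39.0) in CS and 29.9 (15.9 to 51.1) in TS) but lower in TBM (13.6 (11.15 to 16.4)) than in CBM (28.7 (25.1 to 32.7)). In clusters 5 and 16 Ifi44 was lower in TS than in CS, with intervals that overlapped. Stat2 in cluster 0 had a TS over CS ratio of 0.28, against -0.91 in the whole class. With each cell assigned on its own, the TS over CS ratios of Ifi44, Stat2, Rsad2 and Gbp3 were -0.15, -0.18, -0.13 and -0.069, nearer to 0 than in the reported class.

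**Figure D3:**
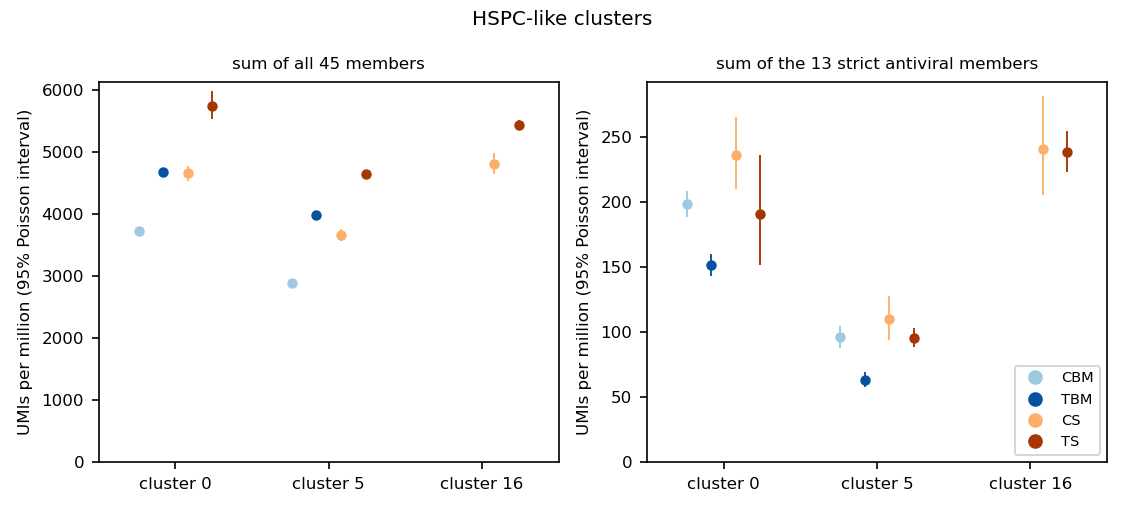
Summed level of the 45 interferon-stimulated genes and of the 13 strict antiviral members in the 3 HSPC-like clusters, by library, in CPM with exact 95% Poisson intervals; libraries with under 30 cells in a cluster are left out. The full sum is higher in the tumor library of each tissue in every cluster shown, and the lowest strict sum is that of TBM cells in cluster 5 (63.5).

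The rest of the pathway was examined as a list of 51 genes from ligand to feedback, which moved in both directions. No UMI of Ifna1, Ifna2, Ifna4, Ifnb1, Ifnl2 or Ifnl3 was found in HSPC-like cells, and Ifng had 1 UMI in TS. The type I receptor gene Ifnar1 stood at 30.2 CPM in CBM and 25.8 in TBM, and 33.7 in CS and 23.25 in TS and was lower in TS (-0.53 (-0.86 to -0.20)) with -0.23 (-0.43 to -0.02) in TBM. Ifnar2 stood at 92.1 in CBM and 85.8 in TBM, and 96.9 in CS and 80.4 in TS with -0.27 and -0.10. The interferon-gamma receptor genes did not share this, with Ifngr1 at 70.7 in CBM and 76.7 in TBM, and 70.6 in CS and 87.6 in TS and a ratio of 0.31 (0.11 to 0.52) in spleen, and Ifngr2 at 16.9 in CBM and 21.0 in TBM, and 21.0 in CS and 20.4 in TS. Il10rb, a part of the type III receptor, stood at 42.05 in CBM and 41.7 in TBM, and 40.2 in CS and 32.05 in TS, and its partner Ifnlr1 had no UMI.

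Of the 51 genes, 38 had at least 20 UMIs in TS and CS, of which 24 were lower and 14 higher, where 44.8% of all genes were higher. At least 2-fold lower were 5 (3.6% of all genes) and at least 2-fold higher 1 (1.92%). In TBM over CBM 28 of 39 were lower and 11 higher (46.8% of all genes higher), 3 at least 2-fold lower (2.75%) and 1 at least 2-fold higher (2.22%). In CS over CBM 26 of 39 were higher (51.5% of all genes), 2 at least 2-fold higher (2.2%) and 1 at least 2-fold lower (2.93%). Socs3, a feedback inhibitor of cytokine receptors that interleukin-6 and G-CSF also induce, was the only one at least 2-fold higher in the tumor libraries, at 25.4 CPM in CBM and 82.4 in TBM, and 39.6 in CS and 99.9 in TS, or 1.34 (1.08 to 1.61) and 1.70 (1.52 to 1.88). Irf8, the factor of monocyte and dendritic fate, stood at 91.45 in CBM and 49.3 in TBM, and 119.6 in CS and 39.8 in TS, or -1.59 (-1.79 to -1.39) and -0.89 (-1.025 to -0.76). Irgm2, a further immunity-related GTPase, stood at 12.96 in CBM and 5.11 in TBM, and 19.5 in CS and 6.02 in TS, or -1.69 (-2.21 to -1.18) and -1.34 (-1.75 to -0.95). Its T-cell relative Tgtp2 was lower by -1.055 (-1.49 to -0.61) and -1.23 (-1.57 to -0.89), from 17.1 in CBM and 7.32 in TBM, and 21.6 in CS and 10.4 in TS, and Tgtp1, whose sequence is nearly the same, by -1.67 (-2.48 to -0.86) in spleen and -0.61 (-1.10 to -0.12) in marrow. Ifi209, a DNA-binding protein of the PYHIN family, was high in CS alone (6.59 in CBM and 5.17 in TBM, and 18.6 in CS and 5.465 in TS), with -1.77 (-2.30 to -1.23) and 1.50 (1.01 to 1.98). The interval of the RNA receptor gene Tlr7 in CS over CBM is wide (-1.36 (-3.72 to 0.33)). Phf11d was lower by -1.30 (-2.255 to -0.41) in marrow. Cxcl10, a chemokine that interferons can induce, stood at 0.985 in CBM and 1.21 in TBM, and 11.8 in CS and 10.8 in TS, higher in CS than in CBM by 3.58 (2.65 to 4.61) and with -0.12 (-0.65 to 0.43) in TS, and Cxcl9 had 1 UMI in TS.

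Ly6a (Sca-1) is induced by interferon in HSPCs and was itself a gate of the sort, so it is not a member and its level depends on how the gates were mixed. It stood at 59.9 CPM in CBM and 81.3 in TBM, and 51.7 in CS and 93.4 in TS, higher in both tumor libraries (0.85 (0.62 to 1.09) and 0.44 (0.31 to 0.57)), in contrast to most interferon-stimulated genes.

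The share of cells with at least 1 UMI of the 13 strict antiviral members was compared after thinning each cell to 2000 UMIs. In HSPC-like cells it was 27.5% (24.4 to 30.6) in CBM and 19.8% (17.3 to 22.5) in TBM, and 28.3% (21.3 to 36.2) in CS and 24.6% (21.4 to 28.0) in TS. The marrow libraries had intervals that did not overlap, and the spleen libraries had intervals that did. Unthinned, the shares were 74.15%, 64.5%, 80.3% and 75.3%. GMP-like cells were the low end, at 4.75% (3.27 to 6.64), 3.23% (2.30 to 4.41), 7.58% (4.30 to 12.2) and 6.18% (4.11 to 8.86) with median depths of 29830.0, 35280.5, 34946.5 and 33819 UMIs, against 14006, 13544.5, 19645 and 13862 in HSPC-like cells. Cells with at least 3 of these UMIs made up 2.19%, 1.30%, 3.29% and 1.88% of HSPC-like cells. The variance of the thinned count divided by its mean was 2.21, 1.79, 1.59 and 1.54 in HSPC-like cells. Independent draws would give about 1, so the counting intervals of the strict sums are too narrow for the spread between cells.

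**Figure D4:**
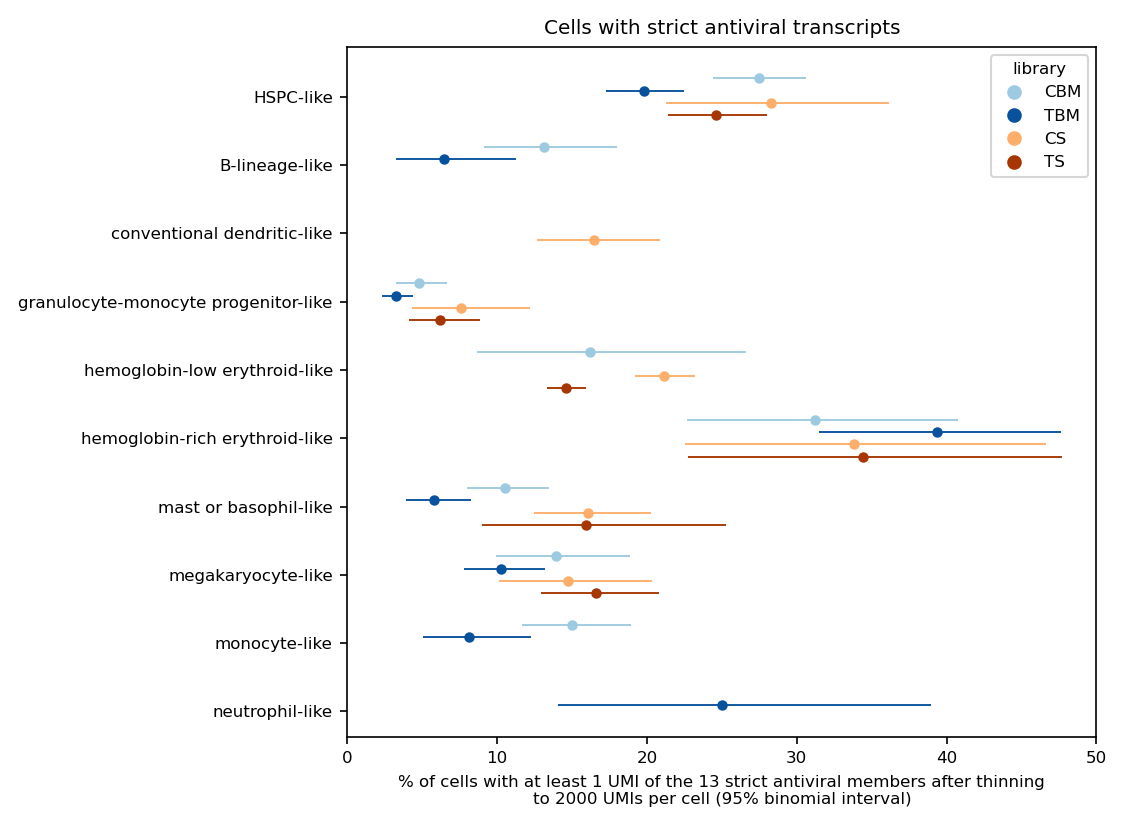
Percent of cells with at least 1 UMI of the 13 strict antiviral members after thinning to 2000 UMIs per cell, by cell class and library, with exact 95% binomial intervals. Hemoglobin-rich erythroid-like cells are highest and GMP-like cells lowest in each library; in HSPC-like cells TBM (19.8%) is below CBM (27.5%).

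The same ratios were formed in the other cell classes, which differed in their highest and lowest members. In GMP-like cells (684, 1206, 212 and 442 cells) the member medians of the 3 comparisons were -0.45 (-0.88 to -0.01), -0.30 (-0.58 to -0.09) and 0.33 (-0.04 to 0.68), beside -0.10, 0.01 and 0.10 over all genes. Different clusters held most of these cells: cluster 12, led by Ly6c2 and F13a1, held 442, 29, 87 and 1 cells in CBM, TBM, CS and TS, cluster 6, led by S100a8 and Elane, 120, 531, 38 and 104, and cluster 8, led by Ms4a3 and Elane, 14, 413, 11 and 318. In TS over CS 7 of 37 members were at least 2-fold lower (7.8% of all genes) and 1 at least 2-fold higher (1.91%), and in TBM over CBM 6 of 41 were lower (3.23%) and 1 higher (3.79%). Ifitm1 was that higher member both times, at 93.2 CPM in CBM and 357 in TBM, and 145 in CS and 660.2 in TS, or 2.19 (2.09 to 2.29) and 1.94 (1.87 to 2.01). The thinned share of GMP-like cells with an Ifitm1 UMI was 13.1%, 37.5%, 26.8% and 56.3% in CBM, TBM, CS and TS. The lowest members were Ddx60 (-1.70 (-2.76 to -0.67)) and Isg15 (-1.36 (-1.915 to -0.81)) in spleen, and Iigp1 (-3.74 (-6.13 to -1.98)) and Usp18 (-2.26 (-3.49 to -1.145)) in marrow. Few GMP-like cells held an Iigp1 UMI, with unthinned shares of 1.32%, 0.249%, 0.943% and 0.452% in CBM, TBM, CS and TS. Oasl1 followed Ifitm1 in TS over CS (0.62 (-0.48 to 1.87)), and Rsad2 followed it in TBM over CBM with an interval that includes 0 (0.76 (-0.16 to 1.78)). In CS over CBM 3 of 40 members were at least 2-fold higher (4.52%) and 1 at least 2-fold lower (1.14%), led by Isg15 (1.94 (1.37 to 2.51)) and Irf7 (1.14 (-0.12 to 2.365)), with Iigp1 (-1.73 (-4.87 to 0.31)) and Ifit2 (-0.13 (-0.87 to 0.56)) lowest. The most abundant members were Ly6e (910.4 in CBM and 671 in TBM, and 1151 in CS and 734 in TS), Ifitm2 (431 in CBM and 486 in TBM, and 517 in CS and 448 in TS) and Ifitm1. Markers of other cell types moved with these values. The 9 neutrophil markers summed to 307 CPM in CBM and 1985.5 in TBM, and 358 in CS and 1017.5 in TS, with Retnlg at 0 in CBM, CS and TS, Ltf in CBM and TS, and Ly6g in CS and TS. The 7 monocyte markers, all detected in each library, summed to 2736 in CBM and 1536 in TBM, and 2363 in CS and 644 in TS. Their part in the member ratios was not tested.

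Hemoglobin-low erythroid-like cells (1694 in CS and 2826 in TS) had the lowest tumor median of any class, -0.77 (-0.895 to -0.62) beside -0.11 over all genes. Of the 44 members 42 were lower, where only 37.4% of all 13610 genes were higher. At least 2-fold lower were 17 of 44, beside 10.7% of all genes, and 0 were at least 2-fold higher (1.51%). Different clusters held these cells, clusters 4 (869 cells) and 7 (730) in CS and clusters 1 (1160) and 2 (1134) in TS, and in cluster 14, which had 44 cells of CS and 446 of TS, the median was -0.33. Iigp1 was again lowest, at 14.2 (13.3 to 15.1) CPM in CS and 0.366 (0.256 to 0.506) in TS, or -5.275 (-5.80 to -4.80), followed by Oas2 (-3.50 (-4.88 to -2.37)). Ifitm1 was lower here, from 209 in CS to 30.6 in TS, or -2.78 (-2.83 to -2.72). Marker sums of other classes were lower beside it, at 170.1 CPM in CS and 46.4 in TS for the 9 HSPC markers, 108 and 32.1 for the 9 mast or basophil markers, and 122 and 27.5 for the 12 T, NK or innate lymphoid markers, of which Ncr1 alone was at 0, in TS. Their part in the Ifitm1 difference was not tested. The thinned share of cells with an Ifitm1 UMI was 24.35% (22.3 to 26.5) in CS and 5.61% (4.79 to 6.52) in TS. Ifitm2 stood at 361 in CBM, 547 in CS and 367 in TS and Ly6e at 393 in CBM, 442 in CS and 388 in TS. The highest members were Oasl1 (0.54 (0.40 to 0.69)) and Cmpk2 (0.19 (0.10 to 0.28)). Against the 74 such cells of CBM, 4 of 43 members were at least 2-fold higher in CS (3.19%) and 2 at least 2-fold lower (10.2%), with Isg15 (2.50 (1.83 to 3.25)) and Ifit1 (1.44 (-0.43 to 4.50)) highest and Xaf1 (-1.29 (-1.60 to -0.96)) and Oas2 (-1.14 (-2.57 to 0.78)) lowest. Ifi44, with 0 UMIs in CBM and 174 in CS, has no ratio, so it is not among the 4 and was not ranked.

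**Figure D5:**
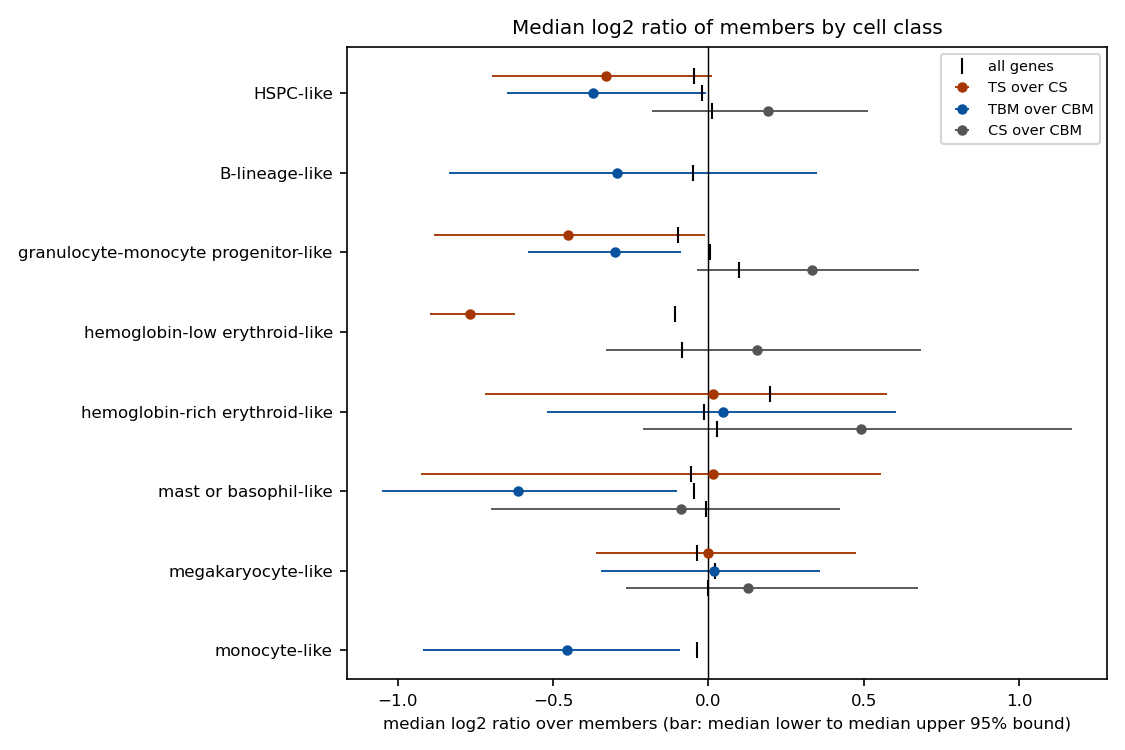
Median log2 ratio of the interferon-stimulated genes by cell class for TS over CS, TBM over CBM and CS over CBM, beside the median over all genes of the class; lines run from the median lower to the median upper interval bound of the members. The lowest value is that of hemoglobin-low erythroid-like cells in TS over CS (-0.77), and the medians of megakaryocyte-like cells lie near 0 in both tumor comparisons, while their strict antiviral sum, not plotted, is 0.55 in TS over CS. The thinned shares of megakaryocyte-like cells with a strict antiviral UMI have intervals that overlap in CS and TS.

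Hemoglobin-rich erythroid-like cells, the later stage of red cell formation by their hemoglobin genes, carried the highest strict antiviral level of the classes compared, at 251.5, 296, 524 and 328 CPM in CBM, TBM, CS and TS. With 109, 150, 65 and 61 cells, their member medians were 0.02 (-0.72 to 0.57), 0.05 (-0.52 to 0.60) and 0.49 (-0.21 to 1.17) in the 3 comparisons, beside 0.20, -0.015 and 0.03 over all genes. As many as 66.4% of all genes were higher in TS than in CS, and the 12 erythroid markers summed to 250415 CPM in CS and 136881 in TS, which bears on the CPM of every other gene. Totals without mitochondrial, ribosomal protein and hemoglobin genes were among the alternatives run for medians and sums. The part of hemoglobin in the ratios of single genes was not tested. Isg15 stood at 57.7 CPM in CBM and 104 in TBM, and 222 in CS and 98.75 in TS, highest in CS, with ratios of -1.17 (-1.50 to -0.84), 0.86 (0.52 to 1.203) and 1.94 (1.62 to 2.27). At least 2-fold lower were 2 of 28 members in TS over CS (2.37%) and 1 of 28 in TBM over CBM (2.79%), with 0 at least 2-fold higher in either (6.81% and 1.99%), and in CS over CBM 6 of 30 were at least 2-fold higher (1.98%) and 1 at least 2-fold lower (4.62%). In spleen Xaf1 (0.76 (-0.11 to 1.63)) and Ifi47 (0.68 (-0.47 to 1.84)) were highest and Dtx3l (-1.37 (-2.81 to -0.13)) lowest. In marrow Stat2 (0.87 (-0.21 to 2.04)) was highest, and Oasl2 (-1.40 (-2.82 to -0.11)) and Dtx3l (-0.80 (-1.86 to 0.225)) lowest. Between control tissues Irf7 (1.67 (0.89 to 2.52)) followed Isg15, and Ifitm1 (-1.42 (-1.98 to -0.89)) and Rtp4 (-0.97 (-2.64 to 0.50)) were lowest. In CBM and CS the 9 HSPC markers summed to 121 and 16.5 CPM, with 3 at 0 in CS, and the 6 granulocyte-monocyte progenitor markers to 1084 and 129. The 9 mast or basophil markers summed to 45.5 and 9.90, with 6 at 0 in CS, while the 8 macrophage markers were higher in CS (29.4 and 36.9). Their part in the Ifitm1 ratio was not tested. Rsad2 stood at 106 in CBM and 105 in TBM, and 177 in CS and 99.7 in TS, Ly6e at 208 in CBM and 214 in TBM, and 225 in CS and 285 in TS and Ifitm3 at 123 in CBM and 103 in TBM, and 144 in CS and 158 in TS. The 9 conventional dendritic markers summed to 24.4, 12.1, 257 and 26.7 CPM, highest in CS like Isg15, with Cd209a at 0 in every library, and their part was not tested. The strict antiviral UMIs were unevenly spread: the 5% of cells with the most held 32.5%, 35.0%, 53.0% and 44.9% of them in CBM, TBM, CS and TS. The thinned share of cells with such a UMI was 31.2%, 39.3%, 33.8% and 34.4%, with intervals that overlapped.

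Mast or basophil-like cells, granular cells of allergic responses, had the highest summed level, 7009, 8125, 8006 and 8879 CPM, of which Ifitm1 alone held 56.7% in CBM. Ifitm1 stood at 3975 CPM in CBM and 4491 in TBM, and 4587 in CS and 4700.3 in TS, Ly6e at 1152 in CBM and 1826 in TBM, and 1244 in CS and 2030.3 in TS and Ifitm2 at 501 in CBM and 815 in TBM, and 724 in CS and 994 in TS. Their medians were 0.02 (-0.93 to 0.56) in spleen and -0.61 (-1.05 to -0.10) in marrow, and -0.09 (-0.70 to 0.42) between control tissues, beside -0.06, -0.05 and -0.01 over all genes. Different clusters held most of the cells: cluster 3, led by Ccl6, Ccl3 and Ccl4, held 412, 228, 294 and 44 cells in CBM, TBM, CS and TS, and cluster 20, led by Prss34 and Mcpt8, held 44, 230, 5 and 21. The 9 mast or basophil markers summed to 13185 CPM in CBM and 28174 in TBM, and 6198 in CS and 19601 in TS, and the part of this make-up in the values was not tested. In TBM over CBM 8 of 37 members were at least 2-fold lower (4.2%) and 0 higher (3.85%), with Usp18 (-2.18 (-3.44 to -1.07)) and Rtp4 (-2.17 (-3.19 to -1.25)) lowest and Ifitm2 (0.70 (0.62 to 0.79)) and Ly6e (0.66 (0.61 to 0.72)) highest. In TS over CS, with 90 cells in TS, 4 of 33 were at least 2-fold lower (9.11%), led by Cmpk2 (-2.64 (-8.00 to -0.04)) and Samhd1 (-1.24 (-1.58 to -0.91)), and Ly6e (0.71 (0.61 to 0.80)) and Gbp3 (0.60 (-0.89 to 1.90)) were highest. In both TBM over CBM and TS over CS, 1 of the members was at 0 in 1 library. It has no ratio, so it was neither counted as lower nor ranked. No UMI of Iigp1 was found in these cells of TBM or TS. In CS over CBM 1 of 36 was at least 2-fold higher (2.76%) and 1 lower (2.05%). These were Isg15 (1.63 (1.16 to 2.13)) and Iigp1 (-1.22 (-2.04 to -0.46)), followed by Parp9 (0.59 (0.10 to 1.08)) and Oasl2 (-0.89 (-2.42 to 0.49)). The Iigp1 ratio rests on few cells: the unthinned share with an Iigp1 UMI was 1.16% in CBM and 1.38% in CS, so it was not lower in CS. The 9 neutrophil markers summed to 76.9, 397, 7.61 and 76.8 CPM, with Ly6g at 0 in every library, and their part was not tested.

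Megakaryocyte-like cells, the platelet precursors, had member medians close to those of all genes in both tumor comparisons, at -0.001 (-0.36 to 0.48), 0.02 (-0.35 to 0.36) and 0.13 (-0.265 to 0.67), beside -0.04, 0.02 and -0.001 over all genes. Their strict antiviral sum was higher in TS than in CS, by 0.55 (0.35 to 0.74), opposite in sign to HSPC-like cells, and was 0.01 (-0.17 to 0.20) in TBM over CBM; the difference between the classes was not tested. In the order CBM, TBM, CS and TS, the 9 neutrophil markers in these cells summed to 23.7, 77.3, 1.31 and 13.5 CPM, with Ly6g at 0 in each, the 6 granulocyte-monocyte progenitor markers to 559, 533, 117 and 212, and the 8 megakaryocyte markers to 6298, 3948, 3645 and 2199. Their part in the member values was not tested. In TS over CS 4 of 40 members were at least 2-fold higher (3.04%) and 2 at least 2-fold lower (2.41%). Rtp4 (1.51 (0.83 to 2.25)) and Oasl2 (1.06 (0.43 to 1.71)) were highest, and Iigp1 (-3.94 (-5.86 to -2.51)) and Oas1a (-1.79 (-3.135 to -0.61)) lowest. In TBM over CBM 1 of 41 was at least 2-fold higher (3.33%) and 0 lower (1.66%), with Ifitm1 (1.50 (1.37 to 1.64)) and Oas1a (0.52 (-0.34 to 1.45)) highest and Iigp1 (-0.98 (-1.97 to 0.00)) and Igtp (-0.95 (-1.36 to -0.54)) lowest. In CS over CBM 3 of 40 were at least 2-fold higher (1.69%) and 0 lower (1.73%). Iigp1 (1.69 (0.935 to 2.49)) and Ifit1 (1.22 (0.18 to 2.34)) were highest there, and Ifi47 (-0.52 (-0.74 to -0.31)) and Oasl2 (-0.45 (-1.15 to 0.225)) lowest. Iigp1 stood at 3.48 CPM in CBM and 1.77 in TBM, and 11.2 in CS and 0.731 in TS. Ifitm2 stood at 514 in CBM and 631 in TBM, and 663 in CS and 684 in TS, Ifitm3 at 566 in CBM and 698 in TBM, and 497 in CS and 477 in TS and Ly6e at 296 in CBM and 373 in TBM, and 398 in CS and 536 in TS.

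Monocyte-like and B-lineage-like cells reached 50 cells in both libraries of marrow but not of spleen. In monocyte-like cells (395 in CBM and 248 in TBM) the median was -0.45 (-0.92 to -0.09), beside -0.04 over all genes, with 6 of 36 members at least 2-fold lower (5.09%) and 2 at least 2-fold higher (2.65%). Ifitm1 led again, at 30.5 in CBM and 193 in TBM, or 2.66 (2.46 to 2.875), followed by Gbp7 (1.13 (0.82 to 1.445)), and Usp18 (-2.62 (-4.60 to -1.09)) and Rsad2 (-1.81 (-3.26 to -0.57)) were lowest. The most abundant members were Ly6e (1445 in CBM and 1204 in TBM), Ifitm3 (805 in CBM and 597 in TBM) and Ifitm2 (519 in CBM and 547 in TBM). The 9 neutrophil markers in monocyte-like cells summed to 183 CPM in CBM, with Retnlg at 0, and to 4385 in TBM, with Ly6g at 0, and neutrophil-like cells of TBM held 1419 CPM of Ifitm1. The part of these markers' cells in the Ifitm1 ratio was not tested. In B-lineage-like cells (247 and 171) the median was -0.29 (-0.84 to 0.35), beside -0.05 over all genes, with 6 of 29 members at least 2-fold lower (7.04%) and 1 at least 2-fold higher (3.9%). Samhd1 was highest (1.57 (1.23 to 1.92)), then Ifitm1 (0.54 (0.10 to 0.98)), and Iigp1 (-2.98 (-6.08 to -1.01)) and Isg15 (-2.79 (-5.90 to -0.80)) were lowest. Ly6e stood at 1321 in CBM and 1195 in TBM, Samhd1 at 76.0 in CBM and 226 in TBM and Ifitm2 at 150.02 in CBM and 111 in TBM. Neutrophil markers summed to 40.5 in CBM and 351 in TBM in these cells, with Mmp8 and Ly6g at 0 in both and Ltf in CBM, and their part was not tested.

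Over all kept cells of a library, where the classes were mixed in different proportions, the member medians were -0.59 (-0.69 to -0.49), -0.50 (-0.66 to -0.35) and -0.09 (-0.18 to 0.06), beside -0.12, -0.07 and -0.07 over all genes. In TS over CS 9 of 44 members were at least 2-fold lower, beside 11.2% of all genes, and in TBM over CBM 4 of 44, beside 5.08%. Iigp1 was the lowest member in both. At least 2-fold higher were 0 in TS over CS (1.82%), 0 in TBM over CBM (3%) and 3 in CS over CBM (6.85%), where 2 were at least 2-fold lower (13.6%).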

How the data were processed

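Single-cell RNA was captured with 3' v3.1 chemistry in 4 libraries. Per the labels, the authors ran Cell Ranger 4.0 on mm10, and they deposited whole-number UMI counts of every barcode, unfiltered. Counts were read as deposited; gene positions are from GENCODE vM21 on GRCm38, where 45 of 45 members matched by identifier, and promoter windows are from RefSeq. The genes and lists were chosen with earlier results of these data known, and 1 gene of the pathway list is not reported here. Barcodes with at least 1000 genes and at most 10% mt- UMIs were kept (16261 cells). Pearson residuals (theta 100) of 17511 genes, without members, pathway genes and Ly6a, gave 50 principal components, 20 neighbors and Leiden clusters at resolution 1.2, with resolution 0.6 as an alternative. A cluster took the name of a class when at least 3 of its markers and at least 40% of its list were detected in 10% of the cells at a log2 fold of at least 1 over the median cluster, and when its markers led the top 10 genes. Scrublet called 39, 50, 24 and 89 doublets in CBM, TBM, CS and TS, which stayed in; leaving out the 5% highest scores was an alternative.

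Member UMIs were summed by class and library and divided by all UMIs of the class (CPM, with no correction for gene length). Levels carry exact Poisson intervals and ratios exact conditional intervals, at 95%. Ratios needed at least 20 UMIs over both libraries and 50 cells in each. A gene was counted as past the fold at 2-fold, over all genes with the same minimum. For the share over all genes, a gene at 0 in 1 library was set to 3 UMIs there. A member at 0 in 1 library has no ratio and was not counted as past the fold. Named are the 10 most abundant members and the 5 highest and 5 lowest per comparison in HSPC-like cells, every member of a role group, and 3 abundant, 2 highest and 2 lowest members in other classes. Alternatives were other cell filters (500 or 2000 genes, 5% mt-), ambient subtraction (10%), UMI minimums of 1 and 100, other totals, centring, the mean over cells, each cell assigned on its own, and sums without the top 3 members. Scripts were tested on simulated Poisson counts, which hold no uneven spread between cells. Cells shallower than 2000 UMIs were left out of thinned shares. Total depth was 101811035, 135207987, 145301019 and 176094297 UMIs in CBM, TBM, CS and TS. Python 3.11.15, numpy 2.4.6, pandas 2.3.3, scipy 1.17.1, scanpy 1.11.5, leidenalg 0.10.2, scikit-learn 1.9.0 and matplotlib 3.10.9 were used.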

Additional observations from a re-analysis of the deposited data

Results flagged for a closer look

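Of 189 pairs of spleen and marrow ratios checked over members, sums and classes, 4 had intervals on opposite sides of 0 for the tumor contrast in the 2 tissues. The share of such pairs over all genes was not counted, so this number has no background to be read against. The difference between the tissues was not tested, since each group was 1 library. Ifitm3 in HSPC-like cells had -0.090 for TS over CS and 0.10 for TBM over CBM, but was higher in TS than in CS within clusters 0 and 5, with overlapping intervals. Ifitm2 in GMP-like cells had -0.21 and 0.17. Isg15 in hemoglobin-rich erythroid-like cells had -1.17 and 0.86, and the strict antiviral sum of the same cells had -0.68 and 0.235. The last value changed its sign in marrow when barcodes needed at least 2000 genes.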

How the results depend on the processing

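Each group was 1 library, so no replicate could be left out. No paired analysis was possible because the labels give 1 library per group and no shared replicate numbers. Of 132 alternatives for the medians and sums of HSPC-like cells, 128 kept their direction and 107 lay inside the interval given with the reported value. For a median this interval is the wide span of member bounds, not a counting interval of the median. The medians of -0.087 and -0.0043 given below thus count as inside, so the 107 is a lenient number. Of 1372 alternatives for other classes and single genes 1279 kept their direction. The alternatives inside HSPC-like and erythroid-like clusters and the sum without Ifitm1 were chosen after seeing the data, and for every value below the cause was not tested. In HSPC-like cells the summed ratio of TS over CS, of TBM over CBM and of CS over CBM was -0.25, -0.18 and 0.19 without Ifitm1, Ly6e and Ifitm2, and 0.17, 0.31 and 0.22 with each cell assigned on its own. For TS over CS and TBM over CBM it was -0.091 and 0.062 without Ifitm1, 0.28 and 0.38 centred on all genes, 0.27 and 0.39 with ambient RNA subtracted, 0.30 and 0.33 in cluster 0, and 0.35 and 0.47 in cluster 5. It was 0.18 for TS over CS in cluster 16 and 0.27 for CS over CBM without that cluster. With mitochondrial, ribosomal protein and hemoglobin genes out of the total it was 0.34 for TBM over CBM and 0.27 for CS over CBM. The strict antiviral sum of TS over CS was -0.079 with each cell assigned on its own, -0.018 in cluster 16 and -0.71 without it, and that of TBM over CBM was -0.40 with each cell assigned on its own and -0.39 in cluster 0. The medians with each cell on its own were -0.087, -0.27 and -0.0043. The alternatives were run for the 19 to 20 genes of HSPC-like cells that were among the 5 highest or 5 lowest of any comparison, not for every member. Ifitm3, Ifi27, Samhd1, Gbp7 and Sp100, named for their level, were not run, and Ifitm3 was higher in TS than in CS within clusters 0 and 5. Among the genes run with an interval apart from 0, the sign changed under some alternative for 3 of 10 in TS over CS, 0 of 13 in TBM over CBM and 2 of 12 in CS over CBM. Among those whose interval included 0 it did for 8 of 9, 1 of 7 and 7 of 7. The former were, in TS over CS, Ifi44 (0.096), Stat2 (0.28) and Ifitm2 (-0.026) in cluster 0 and Ifitm2 (-0.10) with each cell assigned on its own. For CS over CBM they were Gbp3 (-0.36, each cell on its own) and Oas2 (-0.59, cluster 0).

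In other classes, the GMP-like sum of TS over CS was 0.18 with at least 500 genes per barcode, 0.073 centred on all genes, 0.17 at resolution 0.6, 0.022 with each cell on its own, 0.022 with ambient RNA subtracted and 0.012 as a mean over cells, against -0.025 as reported. Against 0.015 as reported, the sum over all cells of TBM over CBM was -0.018 with those genes out of the total, -0.31 without the 3 top members and -0.13 without Ifitm1. In hemoglobin-low erythroid-like cells, CS over CBM was -0.017 for the sum and -1.19 for the strict sum with at least 500 genes, and -0.41 for the sum at resolution 0.6. The strict sum of hemoglobin-rich erythroid-like cells in TBM over CBM was -0.23 with at least 2000 genes. In mast or basophil-like cells the sum was -0.115 in TS over CS with each cell on its own, and -0.33 and -0.48 in TS over CS and TBM over CBM without the 3 top members. Ifit3 and Ifit3b had 0 to 17 UMIs in each HSPC-like library, which left too few for most of their ratios.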

Other observations

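Some classes were frequent in a single library and entered no comparison. Conventional dendritic-like cells, which present antigen and of which CS held 343, had 3091 CPM of the summed members and 100.5 of the strict antiviral members. Their most abundant members were Ly6e (1442), Samhd1 (284) and Trim30a (176). Samhd1, which limits nucleotides in myeloid cells, thus stood above its level in HSPC-like cells of the same library (89.8). Neutrophil-like cells, of which TBM held 52, had 4929 CPM of the summed members and 124 of the strict antiviral members, led by Ifitm2 (1563), Ifitm1 (1419) and Ifitm3 (862). After thinning, 25.0% (14.0 to 38.9) of neutrophil-like cells and 16.5% (12.7 to 20.85) of conventional dendritic-like cells held a strict antiviral UMI.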
